A study of Homo sapiens with 18 samples.

Results

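Glutamate sits at a junction of carbon and nitrogen metabolism, and the genes described here encode 9 enzymes that make it or use it: GLUD1, GLUD2, GLS2, GLUL, GOT1, GOT2, GPT, OAT and ALDH18A1. They were taken as a list by gene symbol from the annotation of the array's probes, with the probe of highest mean signal for each gene. Of the 9 genes, 7 had a named probe, 1 each, among 17687 named genes on 21448 probes, so the rule on the highest mean decided nothing. GLUD2 and GLS2 had no probe by symbol, gene number or accession and were not analysed here. The genes were chosen by their role, and with the measured fall of GLUD1 under both ERK5 hairpins already known, so the GLUD1 changes against the control hairpin are given as a description, with no test.

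The arrays measured total RNA of SK-N-BE(2) and CHLA-90, both established human neuroblastoma cell lines, of which SK-N-BE(2) carries amplified MYCN. Each line received lentiviral particles with shNSC, the control hairpin, or with shERK5-4 or shERK5-5, 2 hairpins against ERK5, the kinase encoded by MAPK7. RNA was taken 72 h after transduction, with 3 arrays in each of the 6 groups and 18 arrays in all, and the series' design text calls them biological triplicates. Every group, the control included, thus carries a lentiviral transduction and a hairpin, and no untransduced cells were analysed here.

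Glutaminases such as GLS2 release glutamate from glutamine, and glutamine synthetase, encoded by GLUL, runs the opposite reaction. Glutamate dehydrogenase, a mitochondrial enzyme encoded by GLUD1 and by its close relative GLUD2, turns glutamate into 2-oxoglutarate and ammonia. The aminotransferases GOT1 and GPT in the cytosol and GOT2 in mitochondria pass its amino group on, forming aspartate or alanine. ALDH18A1 and OAT both lead to glutamate semialdehyde, the branch point to proline and ornithine, and MYC family proteins are known to drive glutamine use in tumour cells, neuroblastoma among them.

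GLUD1 and OAT were lower with both hairpins in both lines. GOT2 differed between the hairpins, its arrays lying above control with shERK5-4 and below it with shERK5-5. Against control it was called only with shERK5-4 in SK-N-BE(2) and with shERK5-5 in CHLA-90. The remaining enzymes moved less. The promoters of GLUD1, OAT and GOT2 are shown because the results turn on them. They are the RefSeq sequences (GRCh38.p14) from 250 bases before to 50 bases after the annotated gene start, read 5′ to 3′ on the minus strand, on which all 3 genes lie. GLUD1 is at chr10:87094794-87095093, OAT at chr10:124418874-124419173 and GOT2 at chr16:58734267-58734566. Capitals mark matches to any of 5 motifs searched on both strands.
GLUD1: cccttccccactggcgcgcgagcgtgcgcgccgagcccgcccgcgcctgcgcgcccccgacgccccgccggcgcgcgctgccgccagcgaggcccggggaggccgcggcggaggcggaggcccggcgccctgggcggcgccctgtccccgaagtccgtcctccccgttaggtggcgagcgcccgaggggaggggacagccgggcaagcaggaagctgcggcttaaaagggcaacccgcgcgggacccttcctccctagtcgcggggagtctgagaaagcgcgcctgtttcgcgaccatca
OAT: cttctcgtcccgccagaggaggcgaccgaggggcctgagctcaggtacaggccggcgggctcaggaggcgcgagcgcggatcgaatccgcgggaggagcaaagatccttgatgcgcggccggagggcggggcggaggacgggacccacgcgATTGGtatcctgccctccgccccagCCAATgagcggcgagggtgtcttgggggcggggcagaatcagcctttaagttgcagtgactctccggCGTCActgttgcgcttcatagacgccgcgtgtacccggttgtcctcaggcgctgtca
GOT2: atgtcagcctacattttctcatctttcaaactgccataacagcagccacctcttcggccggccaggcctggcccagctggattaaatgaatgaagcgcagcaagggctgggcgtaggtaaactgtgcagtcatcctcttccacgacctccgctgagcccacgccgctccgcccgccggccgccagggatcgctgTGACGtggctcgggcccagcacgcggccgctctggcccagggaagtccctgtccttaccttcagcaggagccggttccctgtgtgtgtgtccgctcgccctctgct
The motifs were the E-box CACGTG, bound by MYC proteins, the CCAAT box CCAAT, the cyclic AMP response element half-site TGACG, the amino acid response element TGATGNAA, and the MEF2 site, MEF2 factors being known ERK5 substrates. Of 35116 RefSeq promoters of this length, 7.26% held the E-box, 34.6% the CCAAT box, 24.6% the half-site, 3.62% the amino acid response element and 0.572% the MEF2 site. The GLUD1 window held none of the 5 motifs. OAT held 2 CCAAT boxes and 1 half-site, and GOT2 held 1 half-site. Among the other members, GOT1 held 5 CCAAT boxes, 1 half-site and 1 amino acid response element, ALDH18A1 1 E-box and 3 half-sites, and the first of the GLUL promoters 2 CCAAT boxes. These matches describe letters in a short window, and 8 of the 9 genes had a promoter entry, GPT being the other.

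The values are log2 signals as the authors deposited them, so a difference of 1 is a factor of 2, and changes are read between arrays for the same probe. Percentiles among all probes and means of marker lists do set different probes side by side, and are only a rough guide to signal. A change was called when limma's p-value, adjusted by Benjamini-Hochberg over all 21448 probes, was under 0.05, and errors of changes are standard errors (SE). Array medians ran from 5.63 to 5.69 in SK-N-BE(2) and from 6.35 to 6.43 in CHLA-90, a shift that cancels within a line. MAPK7 lay below every shNSC array of its line on each of the 12 hairpin arrays, at 61.8% and 64.3% of shNSC with shERK5-4 and shERK5-5 in SK-N-BE(2) and at 47.7% and 50.5% in CHLA-90. Its adjusted p-values were 0.0103 and 0.0319 in SK-N-BE(2), and these calls ended without shNSC replicate 1 (0.061 and 0.149), the second also without shNSC replicate 3 (0.11) or shERK5-5 replicate 1 (0.0833) or 2 (0.123). In CHLA-90 they were 0.000329 and 0.00139. Of the neuroblastoma markers, 7 of 8 listed genes had a probe. Their shNSC signals lay between the 42.8 percentile of all probes (DBH in SK-N-BE(2)) and the 98.6 percentile (TH in CHLA-90).

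Other marker lists had low mean signals except the fibroblast genes. Single genes of these lists were not all low. In SK-N-BE(2) under shNSC, PTPRC (66.4 percentile), SOX10 (46.5), CD14 (44.1) and ALDH1L1 (43.2) stood above DBH. The mean log2 signal of 6 of 7 listed fibroblast markers ran from 11.10 to 11.19 on shNSC, 10.49 to 10.65 on shERK5-4 and 11.97 to 12.16 on shERK5-5 arrays of SK-N-BE(2). In CHLA-90 the ranges were 8.71 to 8.77, 8.38 to 8.49 and 8.92 to 9.10. The neuroblastoma list had means of 10.34 to 10.58 on shNSC, 9.10 to 9.61 on shERK5-4 and 10.46 to 10.69 on shERK5-5 arrays of SK-N-BE(2). In CHLA-90 they were 12.84 to 13.15, 10.53 to 10.92 and 12.57 to 12.97, so the list was lower on the shERK5-4 arrays of each line. Schwann cell, blood and astrocyte markers had list means between 3.75 and 5.32 on all arrays. The part of these shifts in the results below was not tested, and in bulk RNA fewer cells of a type and less RNA per cell cannot be told apart.

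GLUD1, the mitochondrial glutamate dehydrogenase, had the lowest change of the measured members in 3 of the 4 hairpin contrasts, OAT being lower in the other (probe TC1000011323.hg.1). In SK-N-BE(2) its log2 signal was 11.30, 11.54 and 11.66 on the shNSC arrays, 9.50, 9.44 and 9.38 with shERK5-4, and 8.64, 8.78 and 9.06 with shERK5-5. In CHLA-90 the shNSC arrays read 11.70, 11.76 and 11.83, those with shERK5-4 9.52, 9.47 and 9.79, and those with shERK5-5 9.89, 9.55 and 9.38. Every hairpin array lay far below the control arrays of its line, with no overlap.

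The mean changes of GLUD1 were -2.06 and -2.67 with shERK5-4 and shERK5-5 in SK-N-BE(2), and in CHLA-90 they were -2.17 and -2.16, each with an SE of 0.17. The hairpin groups thus held 24.0%, 15.7%, 22.2% and 22.4% of the shNSC signal. Ordered by change among the 21448 probes, GLUD1 was the 243rd, 16th, 140th and 27th from the lowest. In SK-N-BE(2) the shERK5-4 arrays lay 0.61 above the shERK5-5 arrays (SE 0.17), and in CHLA-90 the hairpins overlapped, with a difference of -0.01. Lying below shNSC on all 6 hairpin arrays in both lines was a property of 1.33% of probes, 286 in number, and was part of what brought GLUD1 onto the list.

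The GLUD1 probe may not read GLUD1 alone. The current gene table holds 6 pseudogenes with a GLUD1 symbol and 1 gene that overlaps it, SHLD2, and GLUD2 is a near copy, while the probe sequences were not used here. SHLD2 had a probe of its own, with changes of -0.34, -0.46, 0.15 and 0.06 in the order of hairpins and lines above, and none of them was called. The same limit holds for other members. By symbol, GOT2 has 7 pseudogenes, GLUL 6 and OAT 1, and GOT2 and GPT each overlap 1 other gene.

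OAT, the mitochondrial ornithine aminotransferase, which turns ornithine and 2-oxoglutarate into glutamate semialdehyde and glutamate, fell with each hairpin in each line (probe TC1000012121.hg.1). In SK-N-BE(2) its shNSC arrays read 11.78, 11.72 and 11.84, those with shERK5-4 9.50, 8.82 and 9.26, and those with shERK5-5 10.17, 10.30 and 10.57. In CHLA-90 the values were 12.15, 12.57 and 12.16 with shNSC, 10.66, 10.84 and 10.97 with shERK5-4, and 11.90, 11.64 and 11.20 with shERK5-5. Control arrays were highest in each line, shERK5-4 arrays lowest and shERK5-5 arrays between them, with no overlap of the 3 groups. Of all probes, 1.33% lay below shNSC on all 6 hairpin arrays in both lines.

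OAT fell by 2.59 with shERK5-4 and by 1.43 with shERK5-5 in SK-N-BE(2), to 16.6% and 37.0% of shNSC (adjusted p 1.82e-09 and 2.24e-05, limma). In CHLA-90 it fell by 1.47 and 0.71, to 36.1% and 61.0% (adjusted p 1.06e-05 and 0.0215), and the SE was 0.20 throughout. The last of these calls rested on single arrays: without CHLA-90 shNSC replicate 2 the change was -0.58 (adjusted p 0.108), and without shERK5-5 replicate 3 it was -0.52 (0.104). Direct comparison of the hairpins put shERK5-4 below shERK5-5, with differences of -1.15 in SK-N-BE(2) (adjusted p 0.00011) and -0.76 in CHLA-90 (0.00689). The shERK5-4 effect was smaller in CHLA-90 than in SK-N-BE(2) by 1.12 ± 0.28 (SE, adjusted p of the interaction 0.0167), and for shERK5-5 the difference of 0.72 was not called (0.154).

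Across all probes, 5.21% were called in the same direction with both hairpins in SK-N-BE(2) and 3.51% in CHLA-90, 1.29% in all 4 hairpin contrasts, and 0.601% were called lower in all 4. Of the 6 members other than GLUD1, OAT was in that class. The contrasts within a line share the shNSC arrays, so their values are set side by side and not correlated.

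**Figure D1:**
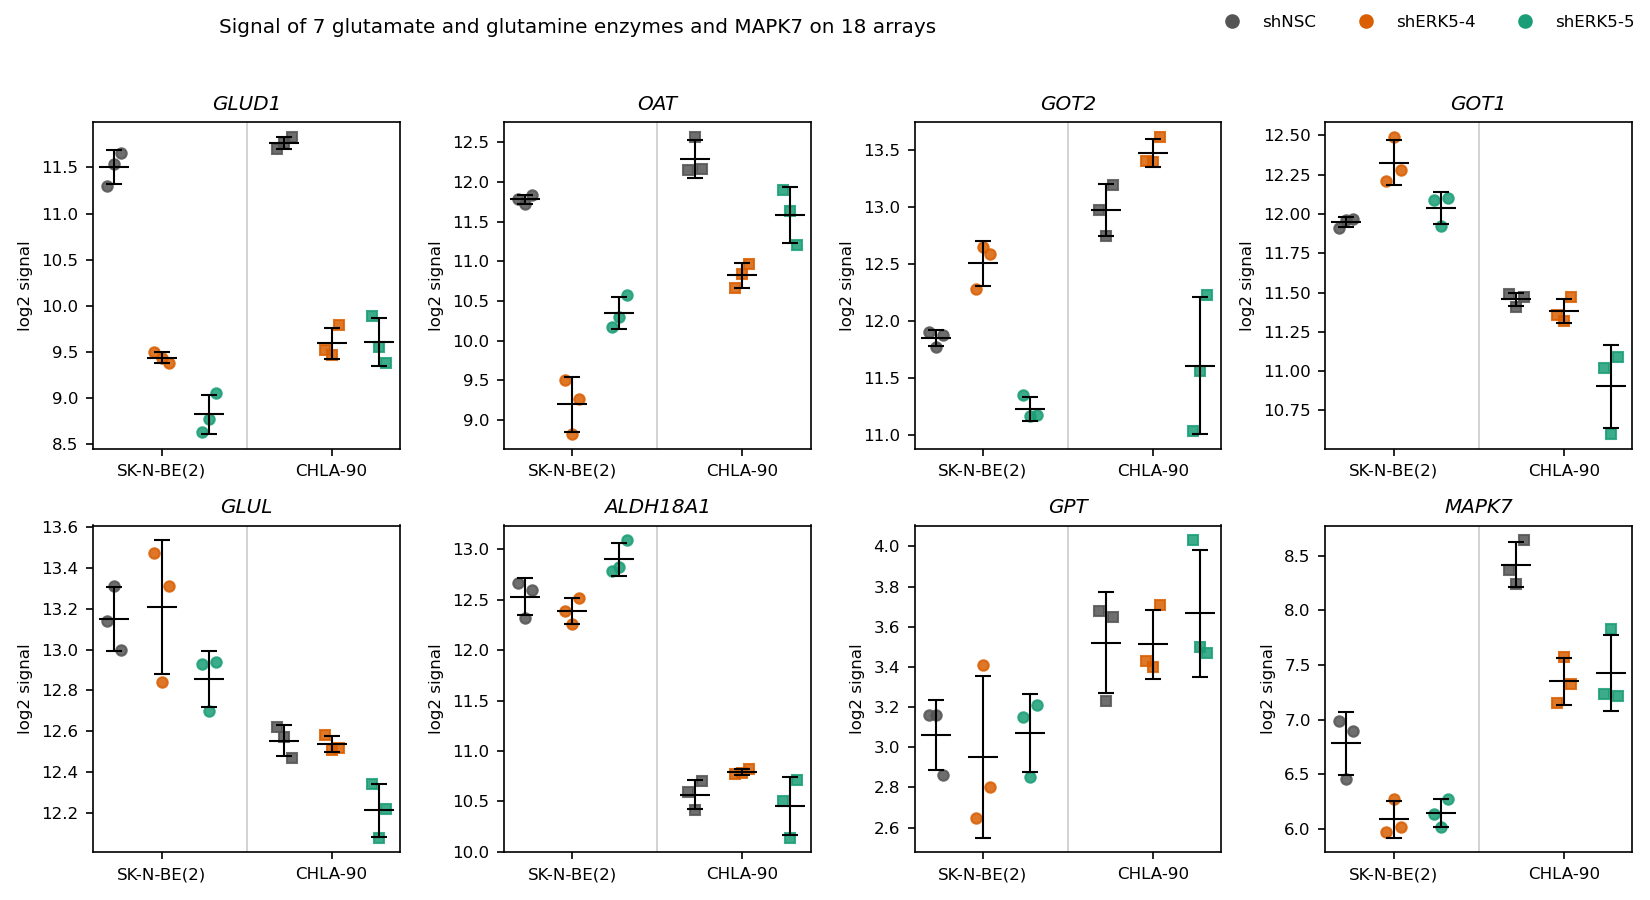
Deposited log2 signal (vertical axis) of each of the 7 measured enzymes and of MAPK7 on each of the 18 arrays, by line and hairpin, with 1 point per array and the mean ± SD of the 3 arrays of a group. GLUD1 and OAT sit lower on all hairpin arrays than on shNSC arrays of the same line, while GOT2 lies above shNSC with shERK5-4 and below it with shERK5-5.

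The aspartate aminotransferases behaved differently from each other. GOT2, the mitochondrial form and a part of the malate-aspartate shuttle, lay on opposite sides of control with the hairpins (probe TC1600010500.hg.1). Its SK-N-BE(2) arrays read 11.90, 11.77 and 11.88 with shNSC, 12.28, 12.65 and 12.59 with shERK5-4, and 11.35, 11.16 and 11.17 with shERK5-5. In CHLA-90 they read 12.98, 12.75 and 13.20 with shNSC, 13.41, 13.40 and 13.62 with shERK5-4, and 11.03, 11.56 and 12.23 with shERK5-5. Within each line every shERK5-4 array was above, and every shERK5-5 array below, every control array, although the CHLA-90 shERK5-5 arrays were widely spread. How many of all probes showed such a separation was not counted, here or for the separations of other members given below.

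GOT2 differed between the hairpins by 1.28 in SK-N-BE(2) (adjusted p 8.23e-05) and by 1.87 in CHLA-90 (8.78e-07), with an SE of 0.22, shERK5-4 being higher in both. Such a difference, called in both lines with the same sign, was found for 11.7% of probes. Against shNSC, GOT2 rose by 0.66 with shERK5-4 in SK-N-BE(2) (adjusted p 0.0299) and fell by 1.37 with shERK5-5 in CHLA-90 (0.000157). The values of -0.62 with shERK5-5 in SK-N-BE(2) (0.0652) and 0.50 with shERK5-4 in CHLA-90 (0.126) were not called. The rise in SK-N-BE(2) was no longer called without shNSC replicate 1, 2 or 3 (adjusted p 0.0586, 0.0911 and 0.0632) or without shERK5-4 replicate 2 or 3 (0.0976 and 0.0835). The shERK5-5 effect in CHLA-90 minus the effect in the other line was -0.75 (adjusted p 0.175), a difference that was called only without CHLA-90 shERK5-5 replicate 3 (-1.06, 0.018) among the arrays left out in turn.

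GOT1, the cytosolic form, moved less (probe TC1000011585.hg.1). Its arrays in CHLA-90 read 11.49, 11.41 and 11.47 with shNSC, 11.36, 11.32 and 11.47 with shERK5-4, and 11.02, 10.60 and 11.09 with shERK5-5, so that the shERK5-5 arrays were below the other groups. The fall with shERK5-5 was 0.55, to 68.1% of shNSC (SE 0.16, adjusted p 0.0214). It was not called without shNSC replicate 1 (0.0693) or 3 (0.0638) or shERK5-5 replicate 2 (-0.40, 0.108). Against shERK5-5, shERK5-4 was 0.48 higher in CHLA-90 (adjusted p 0.0249), which ended without shERK5-4 replicate 1 (0.0531) or 3 (0.0903), without shERK5-5 replicate 2 (0.14) and after quantile normalization of the arrays (0.0933). In SK-N-BE(2) the arrays read 11.91, 11.96 and 11.97 with shNSC, 12.21, 12.49 and 12.28 with shERK5-4 and 12.09, 11.92 and 12.10 with shERK5-5. The shERK5-4 arrays were above the controls by 0.38 (95% interval 0.06 to 0.70, adjusted p 0.0856), a value that was not called, and shERK5-5 overlapped them.

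GPT, the cytosolic alanine aminotransferase, gave a signal between 2.65 and 4.03 on all 18 arrays (probe TC0800009265.hg.1). Its mean stood at the 11.6 percentile of all probes, and with no detection calls in the data it cannot be said whether that is above background. The changes against shNSC ran from -0.11 to 0.15 with an SE of 0.21, and none was called.

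**Figure D2:**
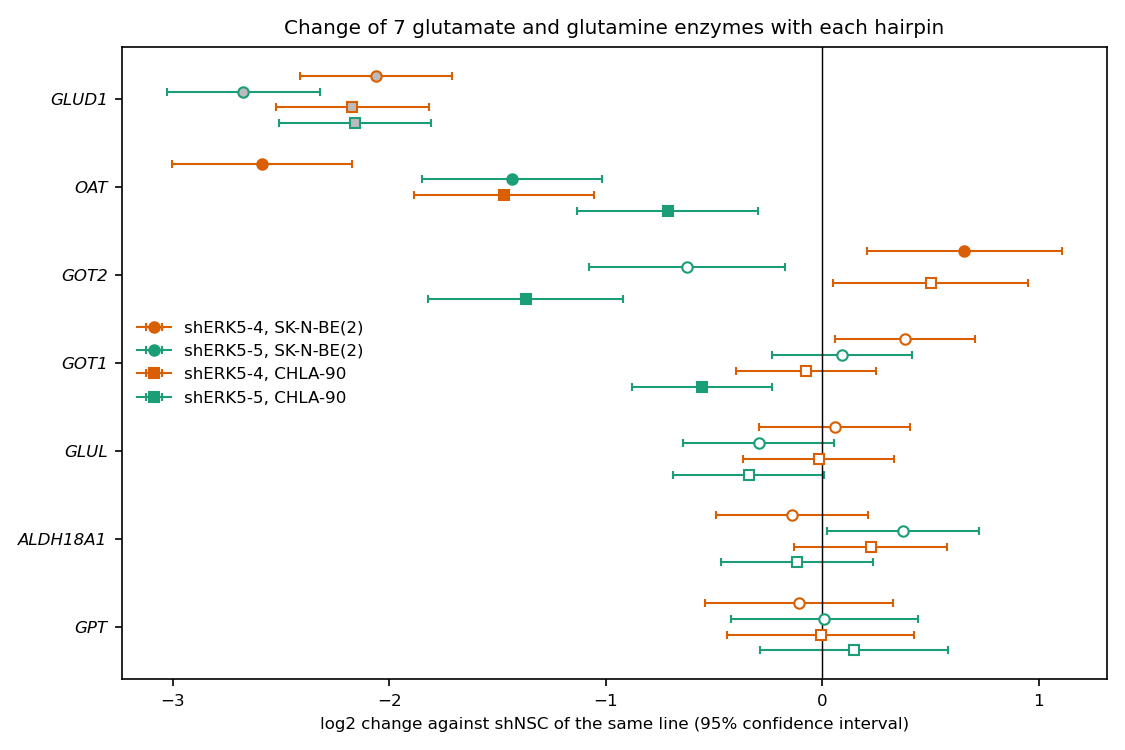
Log2 change against shNSC of the same line (horizontal axis) of the 7 measured enzymes with each hairpin, with 95% intervals from the model. Coloured filling stands for an adjusted p under 0.05, and GLUD1, whose changes were not tested, is filled in grey. The GLUD1 points lie between -2.67 and -2.06, those of OAT between -2.59 and -0.71, and the GOT2 points fall on both sides of 0.

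GLUL, glutamine synthetase, was not called in any hairpin contrast (probe TC0100016625.hg.1). In SK-N-BE(2) its arrays read 13.14, 13.31 and 13.00 with shNSC, 13.47, 12.84 and 13.31 with shERK5-4, and 12.93, 12.70 and 12.94 with shERK5-5. In CHLA-90 they read 12.62, 12.57 and 12.47, then 12.58, 12.51 and 12.52, then 12.34, 12.08 and 12.22 in the same order. The shERK5-5 arrays were below all controls in both lines, with changes of -0.29 (95% interval -0.64 to 0.06, adjusted p 0.337) and -0.34 (-0.69 to 0.01, 0.205), while shERK5-4 overlapped the controls.

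ALDH18A1, the enzyme that makes glutamate semialdehyde from glutamate on the way to proline, was not called against shNSC either (probe TC1000011499.hg.1). Its SK-N-BE(2) arrays read 12.67, 12.32 and 12.60 with shNSC, 12.39, 12.26 and 12.52 with shERK5-4, and 12.79, 12.83 and 13.09 with shERK5-5. Changes with shERK5-4 were -0.14 and 0.22 in the lines, and those with shERK5-5 were 0.37 and -0.12 (SE 0.17, adjusted p 0.187 or higher). In CHLA-90 the arrays read 10.59, 10.41 and 10.70 with shNSC, 10.77, 10.78 and 10.82 with shERK5-4, and 10.50, 10.14 and 10.71 with shERK5-5. In SK-N-BE(2) the shERK5-5 arrays were above both other groups, and in CHLA-90 the shERK5-4 arrays were above the controls by a narrow margin. The hairpins differed by -0.51 in SK-N-BE(2) (shERK5-4 minus shERK5-5, adjusted p 0.0287). That call ended with quantile normalization (0.0947), array weights (0.0632), and without shERK5-4 replicate 1 (0.0597) or 2 (0.0923) or shERK5-5 replicate 3 (0.139).

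The counts that follow are over the 6 measured members other than GLUD1, whose changes were known when it was chosen. With shERK5-4 in SK-N-BE(2), where 23.9% of all probes were called, 12.2% higher and 11.7% lower, 2 of the 6 were called, OAT lower and GOT2 higher. With shERK5-5 in SK-N-BE(2), against 12.8% of probes, 6.07% being lower, 1 of the 6 was called, OAT. With shERK5-4 in CHLA-90, against 18.3%, 8.25% being lower, it was again OAT. With shERK5-5 in CHLA-90, against 12.7%, 6.84% being lower, 3 of the 6 were called, OAT, GOT1 and GOT2, all lower. Median changes of all 7 measured members, GLUD1 included, were -0.11, -0.29, -0.02 and -0.55 in that order, beside medians of all probes of 0.01, -0.00, 0.01 and 0.05. Between the hairpins, 3 of the 6 were called in SK-N-BE(2), OAT, GOT2 and ALDH18A1, where 24.5% of probes were called. In CHLA-90, with 27.2% of probes called, the 3 were OAT, GOT2 and GOT1. Of the interactions with line, 1 of 6 was called for shERK5-4 (OAT, against 7.23% of probes) and 0 of 6 for shERK5-5 (against 5.39%), where limma's unadjusted p was under 0.05 for 3 of the 6.

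The lines also differed under shNSC, but here the scale matters. On the deposited scale the array medians were 0.72 higher in CHLA-90, so each array was first centred on its median. On that scale 56.3% of probes were called, 4110 higher and 7960 (37.1%) lower in CHLA-90, while the deposited values gave 10371 higher and 2490 lower and quantile normalization 5067 and 5277. The median of all probes was -0.27 with centring, 0.45 as deposited and -0.03 after quantile normalization.

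ALDH18A1 was lower in CHLA-90 than in SK-N-BE(2), at -2.68 after centring, -1.96 as deposited and -2.39 after quantile normalization (adjusted p 8.73e-12, 1.35e-09 and 3.04e-11). Its control arrays read 10.41 to 10.70 in CHLA-90 and 12.32 to 12.67 in SK-N-BE(2) on the deposited scale, a gap wider than any shift between scales. GLUL was lower in CHLA-90 too, at -1.32, -0.60 and -0.92 on the same 3 scales (adjusted p 5.67e-07, 0.00417 and 7.19e-05), and so was GOT1, at -1.21, -0.49 and -0.89 (1.01e-06, 0.00982 and 8.32e-05). These 3 members, of the 6 other than GLUD1, kept their direction and their call on the 3 scales. GOT2 was higher in CHLA-90 by 0.41 after centring (adjusted p 0.124), 1.13 as deposited (0.000126) and 0.76 after quantile normalization (0.00547). The order of the lines turned with the scale for GLUD1 (-0.46, 0.26 and -0.13), OAT (-0.21, 0.51 and 0.13) and GPT (-0.26, 0.46 and 0.06), and so was not settled.

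**Figure D3:**
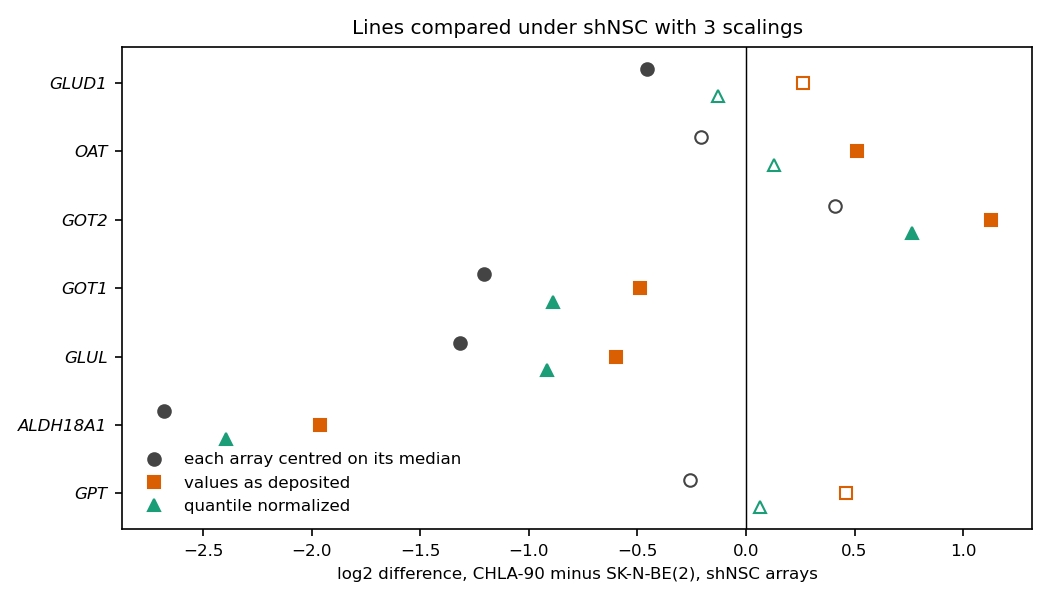
Difference between the lines under shNSC (horizontal axis, CHLA-90 minus SK-N-BE(2), log2) for the 7 measured enzymes on 3 scales: each array centred on its median, deposited values, and quantile normalization. Filled points have an adjusted p under 0.05. ALDH18A1, GLUL and GOT1 lie below 0 on all 3 scales, while GLUD1, OAT and GPT cross 0.

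The surroundings of these enzymes were read from 9 lists of transporters, enzymes and regulators, with 64 of 70 genes measured. With shERK5-4, 7 were called higher and 10 lower in SK-N-BE(2), or 26.6% against 23.9% of all probes, and 9 higher and 8 lower in CHLA-90, or 26.6% against 18.3%. With shERK5-5 the counts were 11 and 2 in SK-N-BE(2), 20.3% against 12.8%, and 4 and 3 in CHLA-90, 10.9% against 12.7%. No gene was called in the same direction in all 4 contrasts by limma's adjusted p, and 3 were at an unadjusted p under 0.05 (SLC7A11, BCAT2 and GFPT1, all higher). Called alike with both hairpins were 4 genes in SK-N-BE(2), BCAT2, GFPT1, SLC25A11 and MYCN, and 1 in CHLA-90, SLC7A11. Of all probes, 5.21% were called alike in SK-N-BE(2), 3.51% in CHLA-90 and 1.29% in all 4 contrasts. The counts of each list below stand beside the shares of all probes given here for the same contrasts.

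Among the carriers of glutamine and large neutral amino acids, 1 of 10 was lower with shERK5-4 in SK-N-BE(2) and 4 of 10 were higher with shERK5-5. SLC38A1, a sodium-coupled glutamine carrier, fell by 1.41 and 0.82 with shERK5-4 in SK-N-BE(2) and CHLA-90 (SE 0.15, adjusted p 2.3e-07 and 0.000354). SLC7A5, the LAT1 carrier that exchanges glutamine for leucine, rose by 1.68 with shERK5-5 in SK-N-BE(2) (SE 0.23, 1.79e-05), and SLC7A8 rose there by 0.95 (SE 0.18, 0.000764). The SLC7A8 signal was low, with means of 4.08 with shNSC and 5.03 with shERK5-5, both below the medians of those arrays. SLC7A6 fell by 1.05 with shERK5-5 in CHLA-90 (SE 0.17, 0.000172). In CHLA-90 the list had 1 gene higher and 1 lower with shERK5-4, and 0 higher and 3 lower with shERK5-5.

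Of 12 glutamate and cystine carriers, 1 was higher and 1 lower with shERK5-4 and 1 higher with shERK5-5 in SK-N-BE(2), and in CHLA-90 each hairpin had 2 higher. SLC7A11, which takes up cystine in exchange for glutamate, rose by 1.58 with shERK5-4 in SK-N-BE(2) (SE 0.27, adjusted p 9.22e-05). Its rises in CHLA-90 of 1.01 (0.00961) and 0.89 (0.032) were not called without shNSC replicate 1 (0.0787 and 0.181), nor without replicate 1 of the hairpin compared (0.0711 and 0.178). SLC25A22, a mitochondrial glutamate carrier, rose with shERK5-5 by 1.41 and 1.14 in SK-N-BE(2) and CHLA-90 (SE 0.25, 0.000408 and 0.00395), while its shERK5-4 changes of -0.31 and 0.09 were not called. SLC25A13, an aspartate-glutamate carrier, fell by 0.87 with shERK5-4 in SK-N-BE(2) (SE 0.19, 0.00119).

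The branched-chain aminotransferases, which move amino groups from leucine, isoleucine and valine onto 2-oxoglutarate to give glutamate, went opposite ways with shERK5-4. BCAT1, the cytosolic form, fell by 2.17 and 0.89 with shERK5-4 in SK-N-BE(2) and CHLA-90 (SE 0.19, adjusted p 1.17e-08 and 0.00155). BCAT2, the mitochondrial form, rose by 1.34 and 1.42 (SE 0.22, 5.4e-05 and 4.44e-05). BCAT2 also rose by 0.73 with shERK5-5 in SK-N-BE(2) (0.0271), a call that ended without shNSC replicate 1 (0.107) or 2 (0.144) or shERK5-5 replicate 1 (0.0916) or 3 (0.133). Over the 6 measured enzymes of their list, 2 were higher and 1 lower with shERK5-4 in SK-N-BE(2), 1 higher and 2 lower in CHLA-90, 1 higher with shERK5-5 in SK-N-BE(2), and 0 called by limma in CHLA-90, with 1 at an unadjusted p under 0.05.

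Among 9 measured enzymes of proline, ornithine and arginine, the neighbours of OAT in metabolism, ASS1 and ASL make arginine from citrulline. ASS1 fell by 2.08 and 0.93 with shERK5-4 in SK-N-BE(2) and CHLA-90 (SE 0.18, adjusted p 6.52e-09 and 0.000486) and was at 0.19 and 0.04 with shERK5-5, not called. ASL fell by 0.94 with shERK5-4 in SK-N-BE(2) (SE 0.17, 0.0002). PYCR1, which makes proline downstream of ALDH18A1 and OAT, rose by 1.62 with shERK5-5 in SK-N-BE(2) (SE 0.32, 0.000958), and its other 3 changes, from -0.85 to -0.83, were not called (0.0542 to 0.0909). Those 3 depended on the settings. With shERK5-4 in SK-N-BE(2) the change was called without shERK5-4 replicate 3 (-1.18, adjusted p 0.00978) or shNSC replicate 2 (0.0499) and under 4 other settings (0.0123 to 0.0449), and in CHLA-90 after quantile normalization (0.0473), with array weights (0.0303) and with a replicate block (0.0188). With shERK5-5 in CHLA-90 it was called with the block (0.0271) and without shERK5-5 replicate 3 (-1.24, 0.00827). ARG2, the mitochondrial arginase that supplies ornithine, rose by 1.20 with shERK5-4 in CHLA-90 (SE 0.25, 0.00126). With shERK5-4, 1 was higher and 2 were lower in SK-N-BE(2), against 1 higher and 1 lower in CHLA-90, and with shERK5-5 1 and 0 in SK-N-BE(2) and 0 called by limma in CHLA-90, with 1 at an unadjusted p under 0.05.

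The glutamine amidotransferases take nitrogen from glutamine. GFPT1, which opens the hexosamine pathway, rose by 1.51 and 1.16 with shERK5-4 and shERK5-5 in SK-N-BE(2) and by 1.44 with shERK5-4 in CHLA-90 (SE 0.17, adjusted p 4.77e-07, 4.28e-05 and 1.54e-06). ASNS, asparagine synthetase, rose with shERK5-5 by 1.44 in SK-N-BE(2) and 0.83 in CHLA-90 (SE 0.18, 4.74e-06 and 0.00318), and fell by 1.12 with shERK5-4 in CHLA-90 (7.11e-05). PFAS, of purine synthesis, fell by 0.87 with shERK5-4 in SK-N-BE(2) (SE 0.18, 0.000782), and CTPS1, which makes CTP, fell by 0.88 with shERK5-4 in CHLA-90 (SE 0.19, 0.00149). Of the 10 measured, 1 was higher and 3 lower, then 2 higher and 0 lower in SK-N-BE(2) with shERK5-4 and shERK5-5, and 2 and 2, then 1 and 0, in CHLA-90.

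MDH1, the cytosolic malate dehydrogenase that works beside GOT1 in the malate-aspartate shuttle, fell by 2.25 and 1.97 with shERK5-4 in SK-N-BE(2) and CHLA-90 (SE 0.16, adjusted p 4e-10 and 4.95e-09), and stood at 0.38 and -0.10 with shERK5-5, not called. SLC25A11, the 2-oxoglutarate carrier, rose by 0.51 and 0.59 with shERK5-4 and shERK5-5 in SK-N-BE(2) (SE 0.17, 0.0352 and 0.0251). The first of these ended without shNSC replicate 1 (0.0629) or 2 (0.197) or shERK5-4 replicate 2 (0.122), the second without shNSC replicate 1 (0.0545) or 2 (0.166) or shERK5-5 replicate 1 (0.0778) or 3 (0.0885). None of the 4 GABA shunt genes was called by limma against shNSC, and 1 had an unadjusted p under 0.05, ALDH5A1 at 0.42 with shERK5-4 in SK-N-BE(2) (adjusted p 0.0939). GSS, the last enzyme of glutathione synthesis, rose by 0.92 and 1.22 with shERK5-4 in SK-N-BE(2) and CHLA-90 (SE 0.19, 0.000843 and 6.19e-05).

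MYCN, a regulator of glutamine use, fell by 2.02 and 0.80 with shERK5-4 and shERK5-5 in SK-N-BE(2), by 1.89 with shERK5-4 in CHLA-90, and rose by 0.97 with shERK5-5 in CHLA-90 (SE 0.17, adjusted p 7.12e-09, 0.00221, 3.46e-08 and 0.000503). GLUD1 and OAT were lower in each of these contrasts, both where MYCN fell and where it rose. Any bearing of MYCN on them was not tested. MYC was not called in any of these contrasts, with changes from -0.27 to 0.22. Its group means were low, from 3.22 to 3.73, and as for GPT it cannot be said whether that is above background.

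**Figure D4:**
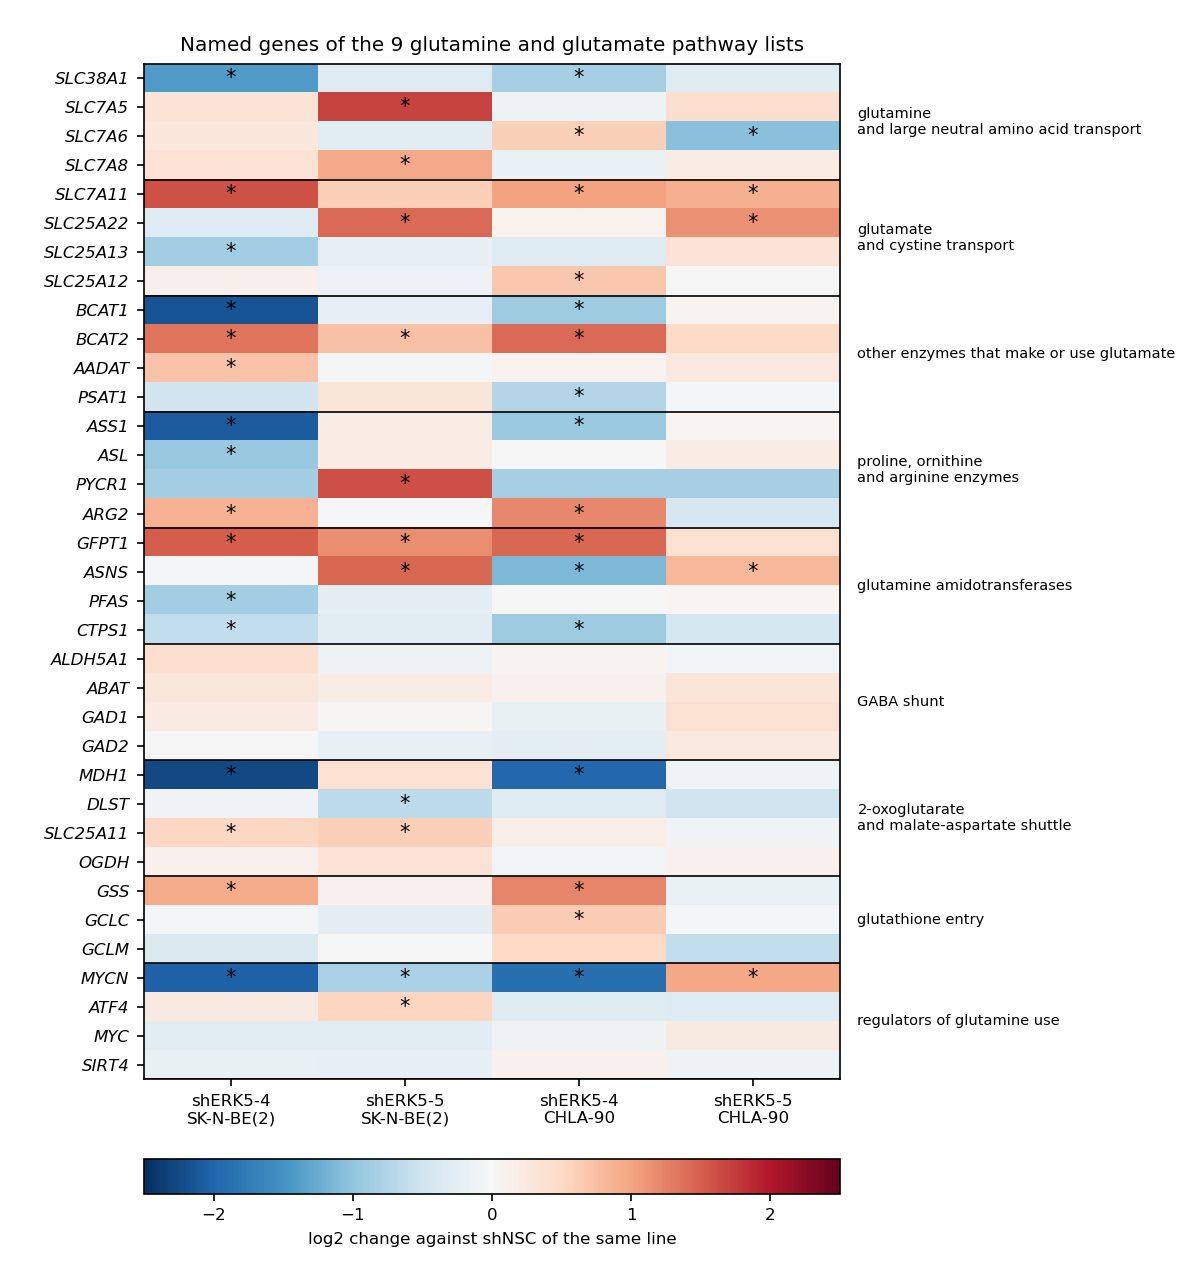
Log2 change against shNSC of the same line for the named genes of the 9 lists (rows) with each hairpin in each line (columns), with colour for size and sign and an asterisk for an adjusted p under 0.05. No row carries 4 asterisks of the same colour, and MDH1, BCAT1 and ASS1 are lower in the shERK5-4 columns of both lines.

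Across the 18 arrays, after each line's mean was subtracted, the genes whose pattern was most like that of GLUD1 were GNG10 (Pearson r 0.975), CBX1 (0.968), DNAJC25-GNG10 (0.967), MINPP1 (0.959) and XRN1 (0.945). The points share the fall with both hairpins, and DNAJC25-GNG10 is a readthrough that shares sequence with GNG10, so these values are a description. GNG10 changed by -2.40, -2.63, -2.35 and -2.24 with shERK5-4 and shERK5-5 in SK-N-BE(2) and then in CHLA-90, and CBX1 by -1.15, -1.59, -1.36 and -1.11. Of the members, OAT was the most like GLUD1 (r 0.777), followed by GLUL (0.411), GOT2 (0.189), GOT1 (0.119), GPT (0.00178) and ALDH18A1 (-0.271).

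**Figure D5:**
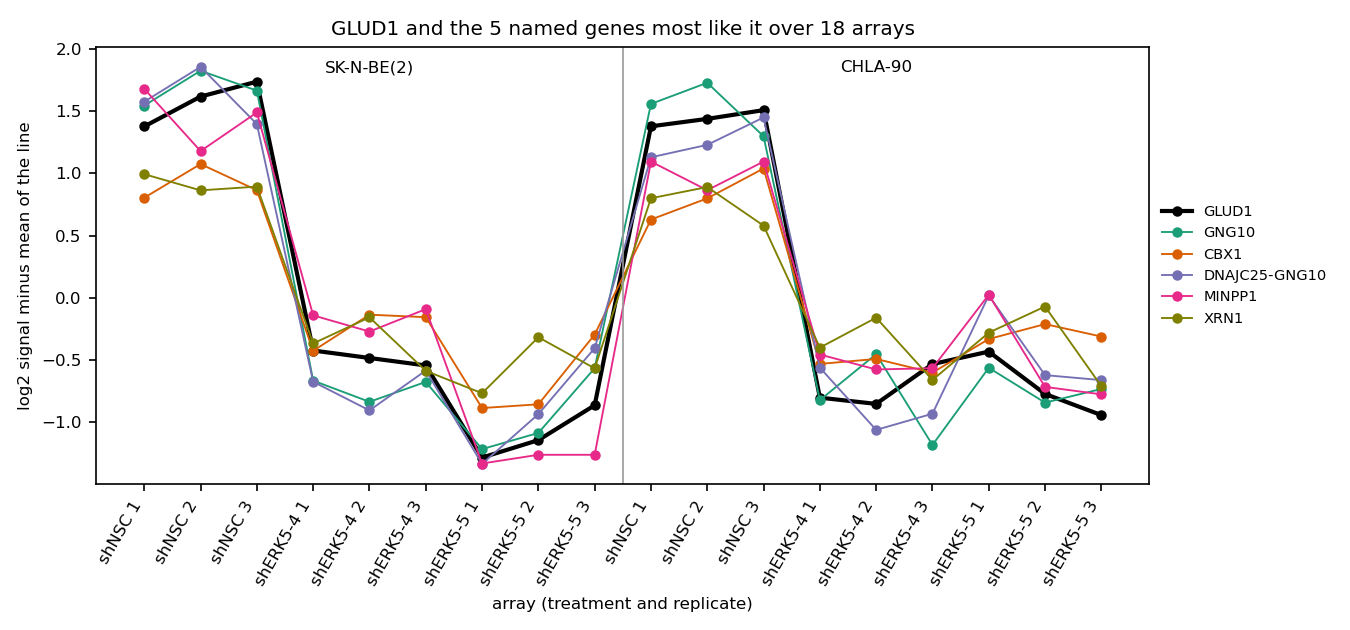
Log2 signal minus the mean of the line (vertical axis) on each of the 18 arrays (horizontal axis, by group) for GLUD1 and the 5 named genes most correlated with it, where lines join arrays only to guide the eye. All 6 genes are high on the shNSC arrays and low on the hairpin arrays of both lines.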

How the data were processed

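Total RNA of both neuroblastoma lines was hybridised, after biotin labelling, to whole-transcript arrays, 3 for each of 6 groups. The authors deposited log2 signals, 1 per probe and array, in a value table; their range is that of base 2 logarithms, and no label or header names the summarisation, normalization, software or genome build. Arrays give no read depth, and precision is limited by the number of arrays. Probes were named through a table of the platform's annotation, which gave 17709 of 21448 probes 1 gene symbol, 3739 none and 0 several. All 17709 gene numbers were found in a current gene table, and 0 symbols differed.

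Groups and replicate numbers came from the sample titles. Where the samples share cultures or viral batches is not stated beyond the word triplicates, so the p-values measure the spread between these arrays. Correlations between arrays over all probes were at most 0.997, and those within a group 0.988 or higher, so no array was a copy of another.

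A limma model (version 3.58.1, R 4.3.3) with a mean for each group was fitted to all probes and all 18 arrays, with 12 residual and 9.59 prior degrees of freedom, and Benjamini-Hochberg adjustment ran over the 21448 probes of each contrast. The calculation was tested on simulated data. Python 3.11.15 with matplotlib 3.10.9 made the plots. The comparison of the lines used arrays centred on their medians. All members and MAPK7 are named, together with, in each gene list, up to 4 genes with the smallest p in any hairpin contrast, and the 5 named genes most correlated with GLUD1. Genes named outside this rule were chosen after their values were seen. The members and the lists were chosen with earlier results of these data known. Alternatives were median centring, quantile normalization, leaving out probes below the 25 percentile of mean signal, a replicate block, a fit to 1 line, array weights, eBayes with a trend and robust estimation, an adjusted p under 0.01, a minimum log2 change of 0.5 and leaving out each array. Leaving out each array for the gene lists, and the genes next to GLUD1 and OAT, were additions made with the data in view.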

Additional observations from a re-analysis of the deposited data

Results flagged for a closer look

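These results are given because limma's test of the difference between the lines (the change with a hairpin in CHLA-90 less the change with it in SK-N-BE(2), adjusted over all probes) was past the threshold. They comprise OAT, the 1 member called, and all genes of the 9 pathway lists that were called. Of the 64 list genes, 6 were called for each hairpin, or 9.38%, beside 7.23% of all probes for shERK5-4 and 5.39% for shERK5-5. CAD, SLC1A5 and SLC3A2 fall outside the rule for named genes and were added after their values had been seen. For shERK5-4 the differences were 1.12 for OAT (adjusted p 0.0167), 1.27 for BCAT1 (0.00425), 1.15 for ASS1 (0.00504), 0.95 for ASL (0.0173), 0.88 for PFAS (0.0363) and 1.18 for CAD (0.034). In the first 5 of these genes the fall was larger in SK-N-BE(2), or was seen there and not called in CHLA-90. CAD, which opens pyrimidine synthesis, stood at -0.77 in SK-N-BE(2), called, and at 0.42 in CHLA-90, not called. The call in SK-N-BE(2) ended without shNSC replicate 1 (0.0589) or 2 (0.0958) or shERK5-4 replicate 2 (0.0791). ASNS differed by -1.08 (0.00942), being at -0.04 in SK-N-BE(2) and -1.12 in CHLA-90. With shERK5-5 the differences were -1.27 for SLC7A5 (0.0255), -2.45 for PYCR1 (0.00223), 1.77 for MYCN (0.000163), -0.86 for ATF4 (0.0284), -1.69 for SLC1A5 (0.000675), a glutamine transporter, and -1.19 for SLC3A2 (0.0291), the partner chain of SLC7A5. SLC7A5 was at 1.68 in SK-N-BE(2), called, and 0.42 in CHLA-90, not called, and the other 5 had opposite signs in the lines. SLC1A5 stood at 0.89 in SK-N-BE(2) and -0.80 in CHLA-90, both called (0.00202 and 0.00662). PYCR1 stood at 1.62 in SK-N-BE(2) and -0.83 in CHLA-90, the latter not called, and MYCN at -0.80 and 0.97, both called. ATF4 was at 0.54 and -0.33 and SLC3A2 at 0.87 and -0.33, in each case called in SK-N-BE(2) alone. That ATF4 call ended with quantile normalization (0.0944), with the arrays of the line alone (0.062) and without some single arrays. These were shNSC replicate 2 (0.0831) or 3 (0.0984) and shERK5-5 replicate 1 or 2 (0.102 each). The SLC3A2 call ended without shNSC replicate 2 (0.0537).

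After quantile normalization the differences between the lines for PFAS (adjusted p 0.0817), CAD (0.0609), SLC7A5 (0.0744), ATF4 (0.077) and SLC3A2 (0.053) were no longer called. The calls of this difference for ASL, PFAS, CAD, SLC7A5, ATF4 and SLC3A2 each ended when single arrays were left out. For ASL these were SK-N-BE(2) shNSC replicate 3 (adjusted p 0.0535), CHLA-90 shNSC replicate 2 (0.0533) and shERK5-4 replicate 2 (0.0546). For PFAS they were 11 of the 12 arrays compared, all but SK-N-BE(2) shERK5-4 replicate 1 (0.054 to 0.094). For SLC7A5 they were SK-N-BE(2) shNSC replicates 1 and 2 and shERK5-5 replicates 1 and 3, and CHLA-90 shNSC replicates 1 and 3 (0.0547 to 0.072). For ATF4 they were SK-N-BE(2) shNSC replicates 2 and 3 and shERK5-5 replicates 1 and 2, and CHLA-90 shNSC replicates 1 and 3 and shERK5-5 replicate 1 (0.0557 to 0.0794). For CAD they were SK-N-BE(2) shNSC replicates 1 and 2 and shERK5-4 replicates 1 and 2, and CHLA-90 shNSC replicates 1 and 2 and shERK5-4 replicates 2 and 3 (0.0513 to 0.106). For SLC3A2 they were SK-N-BE(2) shNSC replicates 1 and 2 and shERK5-5 replicates 1, 2 and 3, and CHLA-90 shNSC replicate 3 and shERK5-5 replicates 1 and 2 (0.0519 to 0.0995).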

How the results depend on the processing

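Of 855 values under alternatives of the 6 members other than GLUD1, 818 stayed on their side of the threshold, 26 lost a call, 10 gained one and 1 reversed, OAT at 0.51 for the lines under shNSC with deposited values in place of centred arrays, where GLUD1 also turned (0.26). Of the 818, 788 kept their direction and 30 changed sign, none of them called (20 of GPT, 8 of GLUL, 1 each of ALDH18A1 and OAT). GLUD1's changes against shNSC, over its main value and 15 alternatives, ran from -2.16 to -1.95 and -2.79 to -2.58 with shERK5-4 and shERK5-5 in SK-N-BE(2) and from -2.30 to -2.11 and -2.30 to -2.04 in CHLA-90. At an adjusted p under 0.01, the members called with shERK5-4 in SK-N-BE(2) went from 2 to 1, with shERK5-5 in CHLA-90 from 3 to 1 and with both hairpins there from 1 to 0, the interaction for shERK5-4 from 1 to 0, and the MAPK7 contrasts from 4 to 2, by the stricter threshold itself. With arrays left out in turn, the members called for the shERK5-5 interaction ran from 0 to 1 (1 without CHLA-90 shERK5-5 replicate 3), those with shERK5-4 in SK-N-BE(2) from 1 to 2 (2 only without shERK5-4 replicate 1), those with both hairpins in CHLA-90 from 0 to 1 (0 without CHLA-90 shNSC replicate 2 or shERK5-5 replicate 3), and the MAPK7 calls from 2 to 4 (2 without SK-N-BE(2) shNSC replicate 1). GOT2 with shERK5-5 in SK-N-BE(2) was called, making 2 members in place of 1, with trend and robust estimation (0.0397), array weights (0.00657) and the arrays of the line alone (0.0229), and likewise with shERK5-4 in CHLA-90 with array weights (0.0184); the cause was not tested. Deposited values gave 5 members called between the lines in place of 3. GLUL differed between the hairpins in SK-N-BE(2) with array weights (0.45, adjusted p 0.045) and without shERK5-4 replicate 2 (0.53, 0.0189). Median centring moved the share of higher calls by under 10 percentage points in each hairpin contrast. The pathway list calls without each array were 14 to 18, 9 to 14, 12 to 18 and 6 to 9 in the order of the report. Of 4932 values of named list genes, 4724 stayed on their side of the threshold, 127 of these with the other sign and no call, 167 lost a call, 41 gained one and 0 reversed. Same-numbered deviations were weakly correlated (18 correlations, from -0.13 to 0.20, 7 over 0.1). Those of replicate 3 ran from 0.11 to 0.20 over both lines, and those of replicates 1 and 2 from -0.13 to 0.15. The replicate 3 arrays may thus share something, and what it is was not tested. With a replicate block GOT2 with shERK5-5 in SK-N-BE(2) was called (-0.62, adjusted p 0.0387). Between the lines GLUD1 was not called (-0.30, 0.288), and no other member's call changed. The block was coded so that values between the lines compared only fitted levels of replicate 1. They are therefore not the differences of group means given above, and the lost GLUD1 call is no check of them. Such values of the other members are among the 855. Among named list genes the block added the 3 PYCR1 falls (0.0123 to 0.0271), DLST with shERK5-5 in CHLA-90 (0.0385) and SLC3A2 between the hairpins in SK-N-BE(2) (0.029), and ended no call. Averaging the probes of a gene was not run, since each member has 1 probe, and leaving out dim probes gave no value for GPT.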

Other observations

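Of the members, 4 lie on chromosome 10: GLUD1, ALDH18A1, GOT1 and OAT. The probed protein-coding genes next to GLUD1 and OAT in RefSeq order were therefore read as well, after the data had been seen. Of 10 neighbours of GLUD1, 8 had no call in any hairpin contrast against shNSC, as had 60.3% of all probes. MINPP1, an inositol polyphosphate phosphatase 4 coding genes away, was called lower in all 4, with changes of -1.62 and -1.55 with shERK5-4 in SK-N-BE(2) and CHLA-90 and of -2.73 and -1.51 with shERK5-5, and it is also among the 5 genes most correlated with GLUD1. ATAD1, 6 genes away, had 1 call higher and 1 lower, with changes of 0.61, -0.90, 0.31 and -0.44. FAM25A and SHLD2, next to GLUD1 on either side, were not called.

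None of the 10 neighbours of OAT was called lower in all 4 contrasts, against 0.601% of all probes, and 5 had no call in any, beside the 60.3% of all probes. CHST15, next to OAT, stood at 0.36 and -1.41 with shERK5-4 in SK-N-BE(2) and CHLA-90 and at 1.01 and -0.36 with shERK5-5, with 1 call in each direction. LHPP had 1 call, lower, at -1.36 with shERK5-4 in CHLA-90. FAM53B had 2 calls, both higher, at 0.57 and 0.99 with shERK5-4 in SK-N-BE(2) and CHLA-90. EEF1AKMT2 and ABRAXAS2 had 1 call each, higher. Whether copy number or other features of these regions bear on the values was not tested.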
